A study of Homo sapiens with 6 samples.

Results

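The genes described here are the 10 genes of mitotic chromosome structure named SMC2, SMC4, NCAPD2, NCAPG, NCAPH, NCAPD3, NCAPG2, NCAPH2, TOP2A and KIF4A. They were taken by symbol from a count table of 25349 genes. The set was chosen with earlier results of these data known, so counts over it are descriptions. All 10 were measured and all 10 were among the 14661 genes with enough reads to be tested. They were measured in SCC-9, an established human line of tongue squamous carcinoma cells. In the siE7 group, exon 7 of MKI67, which encodes the proliferation marker Ki67, was targeted by siRNA, and the siNC group received a nonspecific siRNA. Both siRNAs were used at 10 nM on day 0 and again on day 2 in medium with serum and hydrocortisone, and RNA was collected on day 4. There were 3 libraries per group, and all came from this 1 cell line. The methods list 3 siRNAs against exon 7 and do not say which was used for these libraries. Nothing in the labels says that the replicates were separate cultures, so p-values measure the spread between these libraries, which may be technical.

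Condensins are ring-shaped ATPase complexes that fold chromatin into loops and give mitotic chromosomes their rod shape. SMC2 and SMC4 form the core of both condensin I and condensin II. Condensin I adds NCAPD2, NCAPG and NCAPH and reaches chromosomes after the nuclear envelope opens. Condensin II adds NCAPD3, NCAPG2 and NCAPH2 and is in the nucleus throughout the cell cycle. TOP2A, DNA topoisomerase II alpha, passes DNA strands through each other to untangle sister chromatids. KIF4A is a chromosome-bound kinesin that lies with condensin and TOP2A along the chromosome axis and later acts at the spindle midzone. Ki67 itself coats the surface of mitotic chromosomes. Transcripts of many of these genes rise in dividing cells toward G2 and mitosis.

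The libraries held 25608192 to 29550264 counts on genes, and mitochondrial genes took 2.22% to 2.75% of them. Squamous epithelial markers were present, with all 8 of 8 measured and a summed level of 16930 to 17700 CPM with siNC (read counts scaled to library size by TMM) and 17120 to 22610 CPM with siE7. Of the immune markers only CD68 had reads, at no more than 0.122 CPM, and the 3 endothelial markers summed to no more than 0.492 CPM in any library. The 5 fibroblast and muscle markers summed to 25.0 to 32.8 CPM over all libraries. DCN and DES stayed under 1 CPM in every library, and COL1A1, COL1A2 and ACTA2 did not. MKI67 itself was at 1059 ± 26.7 CPM (SD, n = 3) with siNC and at 115 ± 8.70 CPM (SD, n = 3) with siE7, or 10.8% of the siNC level. One library, siE7 replicate 1, stood apart within its group. Its counts differed from those of the other siE7 libraries with a chi-square per degree of freedom of 61.3 and 72.8, against 5.59 to 6.23 for the remaining pairs within a group. The results for the 10 genes are therefore given also without siE7 replicate 1. Leaving it out does not remove a trend with GC content between the groups, which is given below.

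With siE7, the transcripts of the condensin core and of TOP2A fell, while KIF4A did not pass the test. SMC4 fell to 45.9% of its siNC level, SMC2 to 54.2%, TOP2A to 59.8%, NCAPG to 62.2%, NCAPD2 to 72.4% and NCAPD3 to 79.0%. These 6 of the 10 genes passed the test (edgeR's quasi-likelihood test, Benjamini-Hochberg adjusted p under 0.05 over all tested genes), and each of them was lower. Of all tested genes, 16.0% passed as lower. No gene of the 10 passed as higher, and none was higher at an unadjusted p under 0.05 with edgeR, DESeq2 or limma-voom. All 10 log2 fold changes were below 0, with a median of -0.44, beside a median of 0.08 for all tested genes. SMC4 alone also had a log2 fold change beyond 1, the limit the study used for a differentially expressed gene (DEG). Of all tested genes, 4.84% were DEGs with lower levels. For 8 of the 10 genes the highest siE7 value lay under the lowest siNC value, a pattern found for 22.7% of tested genes. In bulk RNA, a smaller share of dividing cells and less of these transcripts per dividing cell cannot be told apart.

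**Figure D1:**
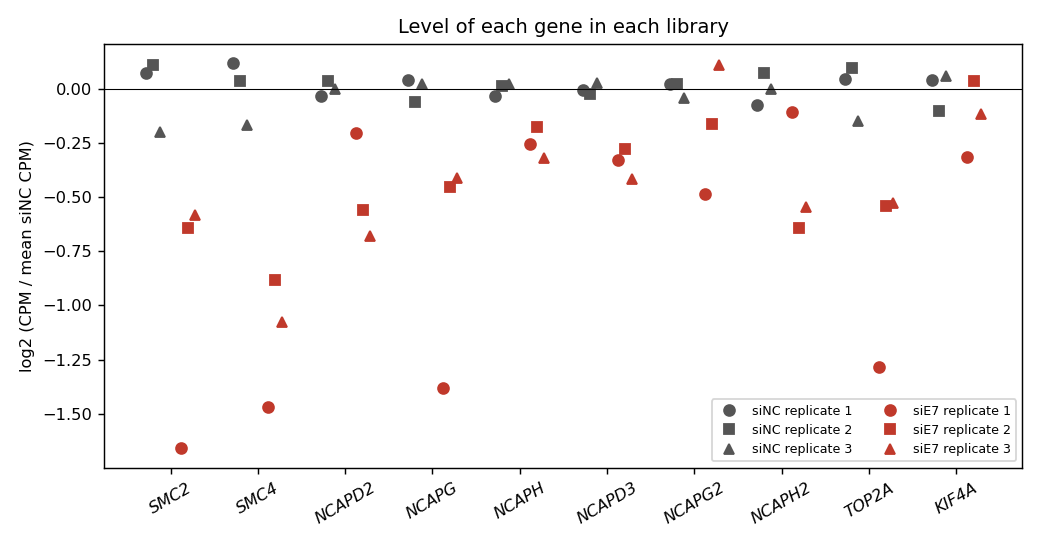
Level of each gene in each library, as log2 of its TMM-normalized CPM over the siNC mean of that gene (y axis). Grey symbols are siNC and red symbols siE7 libraries, with the shape giving the replicate. SMC2, SMC4, NCAPG, TOP2A, NCAPG2 and KIF4A lie lowest in siE7 replicate 1, where SMC2 was at 10.2 CPM. NCAPD2 and NCAPH2 lie highest in that library within the siE7 group.

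With all libraries, the shared core subunits had the largest differences among the condensin genes. Without siE7 replicate 1 this held for SMC4 and not for SMC2 (-0.67), which then lay beside NCAPD2 (-0.68) and NCAPH2 (-0.65). That fit keeps the trend with GC content between the groups, so the likeness of these genes may depend on it. In the GC-corrected fit described below, SMC2 was at -1.02, NCAPD2 at -0.49 and NCAPH2 at -0.42. That correction could itself lower the values of genes poor in GC, such as SMC2. SMC4 (ENSG00000113810.16, chromosome 3 of GRCh38, 160399274 to 160434954, plus strand) was at 110 CPM in siNC replicate 1, 104 in siNC replicate 2 and 90.7 in siNC replicate 3. With siE7 it was at 36.8, 55.2 and 48.2 CPM in replicates 1, 2 and 3. The groups did not overlap, and the highest siE7 library lay well under the lowest siNC library. The change on the log2 scale was -1.12 (standard error, SE, 0.153, adjusted p = 0.000285, edgeR). It was -1.04 without siE7 replicate 1. SMC4 passed in all 17 fits counted, which are the one with all libraries and its alternatives. The fit with KIF4A and KIF4B summed and glmTreat, which tests against a log2 fold change of 1, are not among them. With glmTreat no gene of the 10 was a DEG. SMC2 (ENSG00000136824.19, chromosome 9, 104094260 to 104141419, plus strand) was at 33.9, 34.8 and 28.1 CPM with siNC and at 10.2, 20.7 and 21.6 CPM with siE7. Here too the groups were apart, with siE7 replicate 1 at 48.4% of the mean of the other siE7 libraries. The log2 fold change of SMC2 was -0.88 (SE 0.237, adjusted p = 0.0141, edgeR) and -0.67 without siE7 replicate 1. SMC2 did not pass without siNC replicate 1 (adjusted p = 0.0519, edgeR), without siNC replicate 2 (0.0576) or without composition scaling (0.0686). Exons of SMC4 share up to 1553 bases with IFT80 or TRIM59 on the other strand, and it is not stated whether counting used the strand. SMC2 overlaps no annotated exon of another gene.

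Of the condensin I subunits, NCAPG and NCAPD2 fell and NCAPH did not pass. NCAPG (ENSG00000109805.10, chromosome 4, 17810979 to 17844865, plus strand), a HEAT-repeat subunit that binds DNA together with the kleisin, was at 24.5, 22.8 and 24.2 CPM with siNC. It was at 9.14, 17.4 and 17.9 CPM with siE7, again with siE7 replicate 1 the lowest. Its log2 fold change was -0.68 (SE 0.220, adjusted p = 0.0323, edgeR), and it did not pass when any 1 siNC library was left out (adjusted p = 0.0753 to 0.0935) or without composition scaling (0.14). It was -0.49 without siE7 replicate 1. NCAPD2 (ENSG00000010292.13, chromosome 12, 6493356 to 6531955, plus strand), the other HEAT-repeat subunit, was at 280, 294 and 287 CPM with siNC and at 249, 195 and 179 CPM with siE7. For NCAPD2 the order within siE7 was the opposite one, with replicate 1 nearest to the siNC libraries. The log2 fold change of NCAPD2 was -0.47 (SE 0.131, adjusted p = 0.0177, edgeR) and -0.68 without siE7 replicate 1. Leaving out any other library raised the adjusted p to between 0.0571 and 0.0743 by the same test. NCAPH (ENSG00000121152.10, chromosome 2, 96335766 to 96377091, plus strand), the kleisin that closes the ring, was at 100, 103 and 104 CPM with siNC and at 85.7, 90.5 and 82.1 CPM with siE7. The NCAPH libraries did not overlap between groups, but the difference was small, at -0.25 on the log2 scale (SE 0.105, adjusted p = 0.0865, edgeR). It was -0.31 with DESeq2 (adjusted p = 0.0478) and -0.31 without siE7 replicate 1 (adjusted p = 3.94e-05, edgeR), and NCAPH passed in 4 of 17 fits. NCAPG exons share 1634 bases with LCORL and NCAPD2 exons 383 bases with MRPL51, each on the other strand.

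In condensin II, NCAPD3 fell, and NCAPH2 and NCAPG2 did not pass. NCAPD3 (ENSG00000151503.13, chromosome 11, 134150113 to 134225504, minus strand), a HEAT-repeat subunit, was at 98.4, 97.1 and 101 CPM with siNC and at 78.6, 81.3 and 73.9 CPM with siE7. This was a small and even difference, at -0.34 on the log2 scale (SE 0.105, adjusted p = 0.0267, edgeR) and -0.41 without siE7 replicate 1. NCAPD3 did not pass with a replicate block (adjusted p = 0.0619), without composition scaling (0.142) or when any library other than siE7 replicate 1 was left out (0.0528 to 0.116). NCAPH2 (ENSG00000025770.19, chromosome 22, 50508224 to 50524780, plus strand), the condensin II kleisin, was at 45.8, 50.7 and 48.2 CPM with siNC and at 44.8, 30.9 and 33.0 CPM with siE7. It missed the threshold narrowly with all libraries (log2 fold change -0.41, SE 0.149, adjusted p = 0.0523, edgeR). NCAPH2 passed without siE7 replicate 1 (-0.65, adjusted p = 3.77e-09, edgeR), a fit that keeps the trend with GC content between the groups. In the GC-corrected fit described below it was at -0.42 (adjusted p = 0.00043, edgeR). NCAPG2 (ENSG00000146918.20, chromosome 7, 158631169 to 158704804, minus strand) was at 39.3, 39.3 and 37.5 CPM with siNC and at 27.6, 34.6 and 41.7 CPM with siE7. Its groups overlapped, since siE7 replicate 3 was the highest of all 6 libraries, and the log2 fold change of -0.16 (SE 0.151) had an adjusted p of 0.439 (edgeR). Exons of NCAPD3 and NCAPH2 also overlap those of neighbouring genes, by up to 1889 and 857 bases, and those of NCAPG2 do not.

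TOP2A (ENSG00000131747.15, chromosome 17, 40388525 to 40417896, minus strand) was at 142, 148 and 125 CPM with siNC. With siE7 it was at 56.9 CPM in replicate 1 and at 95.1 and 96.0 CPM in replicates 2 and 3. All siE7 libraries lay below all siNC libraries, and replicate 1 lay below the other siE7 libraries. The log2 fold change was -0.74 (SE 0.180, adjusted p = 0.00857, edgeR). It was -0.59 without siE7 replicate 1, and TOP2A passed in 16 of 17 fits, the exception being library totals without composition scaling (-0.56, adjusted p = 0.057). KIF4A (ENSG00000090889.12, chromosome X, 70290104 to 70420886, plus strand) was at 90.2, 81.9 and 91.6 CPM with siNC and at 70.7, 90.1 and 81.1 CPM with siE7. These values overlapped, and the log2 fold change of -0.12 (SE 0.122) did not pass (adjusted p = 0.454, edgeR). KIF4B, a near-identical intronless copy on chromosome 5, had 1, 0 and 0 counts with siNC and 4, 4 and 1 with siE7, too few to be tested. With both genes summed, the log2 fold change was -0.12 as for KIF4A alone. KIF4A exons share 77 bases with PDZD11 on the other strand.

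**Figure D2:**
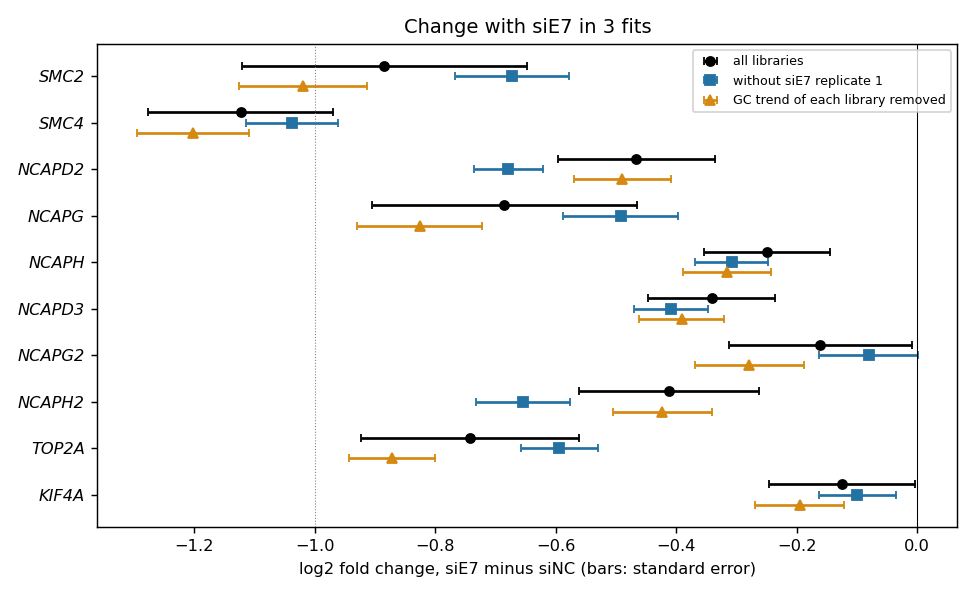
Log2 fold change of each gene, siE7 minus siNC (x axis), with its standard error, from edgeR with all 6 libraries (black circles), without siE7 replicate 1 (blue squares) and after removal of the GC trend of the libraries (orange triangles). The dotted line marks a log2 fold change of -1. SMC4 lies between -1.20 and -1.04 in these fits, and NCAPG2 and KIF4A lie closest to 0 in each.

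The spread within siE7 followed the GC content of the genes. The canonical transcripts of SMC4, SMC2, NCAPG and TOP2A have 36.6%, 37.4%, 38.7% and 38.9% GC, and siE7 replicate 1 was at 71.1%, 48.4%, 51.7% and 59.5% of the mean of siE7 replicates 2 and 3 for them. NCAPG2 and KIF4A, with 44% and 46.2% GC, were at 72.3% and 82.5%. NCAPH and NCAPD3, with 46.1% and 47.3% GC, were at 99.3% and 101%. NCAPD2 and NCAPH2, with 51.6% and 61.3% GC, were at 133% and 140%. The genes poorest in GC were thus among the lowest in that library relative to its group, and the richest were the highest. Across these 10 genes, Pearson's r between GC content and the log2 ratio of siE7 replicate 1 to replicates 2 and 3 was 0.899 and Spearman's rank correlation was 0.915, and the points share the same libraries. Across 7972 tested genes with a mean of at least 10 CPM, which are not independent replicates, r was 0.82. For siE7 replicate 2 against replicate 3 the same r was 0.074. In genes with at most 40% GC the median log2 ratio of replicate 1 was -0.71 (936 genes), and in those above 60% GC it was 0.42 (1285 genes). With all libraries, the fold changes between the groups had a weaker trend the other way (r of -0.104 with GC content). Their median was 0.11 in genes with at most 40% GC and -0.05 in those above 60% GC. Leaving out siE7 replicate 1 therefore does not remove the trend between the groups.

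**Figure D3:**
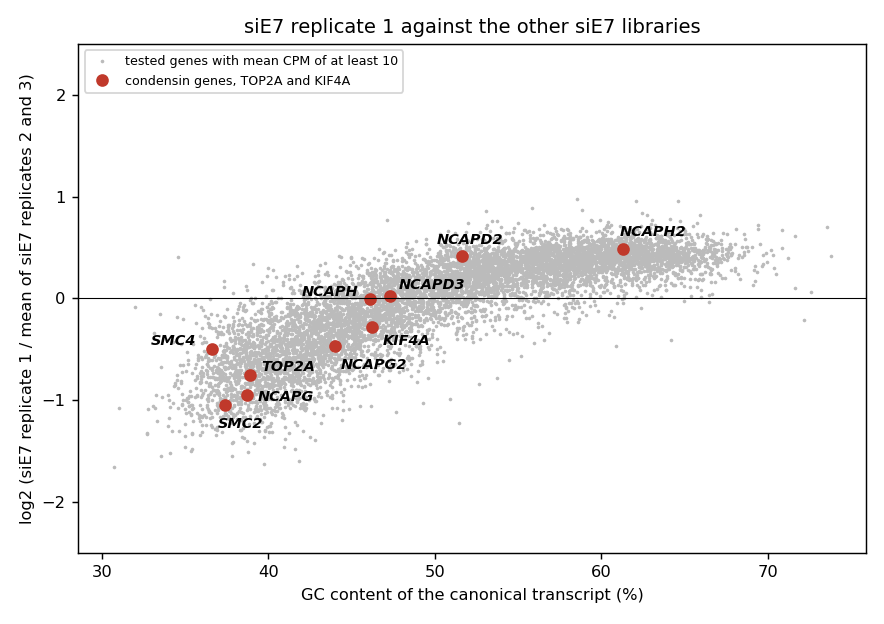
GC content of the canonical transcript (x axis, percent) against the log2 ratio of siE7 replicate 1 to the mean of siE7 replicates 2 and 3 (y axis). Grey points are the 7972 tested genes with a mean of at least 10 CPM, and red points are the 10 genes. The 10 genes lie along the grey cloud, from SMC2 at -1.05 to NCAPH2 at 0.49.

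After removal of the GC trend within each library, an alternative chosen after the data had been seen, all 10 genes passed as lower, against 26.1% of tested genes. This removal takes out the GC trend between the groups as well as that within siE7. Of the 10 genes, 8 have a GC content below 50.3%, the median of the 7972 genes, so the removal itself could lower their fold changes. The log2 fold changes were then -1.20 for SMC4, -1.02 for SMC2, -0.87 for TOP2A, -0.83 for NCAPG, -0.49 for NCAPD2, -0.42 for NCAPH2, -0.39 for NCAPD3, -0.31 for NCAPH, -0.28 for NCAPG2 and -0.19 for KIF4A. SMC4 and SMC2 were DEGs in this fit. KIF4A had the largest adjusted p of the 10 (0.0364, edgeR) and did not pass when a replicate block was added (0.0524). The standard deviation of the 3 siE7 libraries on the log2 scale changed from 0.43 to 0.04 for TOP2A, from 0.60 to 0.17 for SMC2 and from 0.55 to 0.15 for NCAPG. It went from 0.07 to 0.12 for NCAPH and from 0.07 to 0.10 for NCAPD3. Without siE7 replicate 1, 8 of the 10 genes passed as lower, against 29.5% of tested genes. The genes that did not pass in that fit were NCAPG2 (-0.08, adjusted p = 0.418, edgeR) and KIF4A (-0.10, adjusted p = 0.181, edgeR).

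Per kilobase of canonical transcript, the siNC levels spanned a wide range. NCAPD2 was highest at 59.5 ± 1.40 CPM per kb (SD, n = 3), followed by TOP2A at 24.3 ± 2.13, KIF4A at 20.04 ± 1.19, SMC4 at 19.9 ± 1.97 and NCAPH at 17.0 ± 0.340 CPM per kb. NCAPH2 was at 14.5 ± 0.730, NCAPD3 at 13.4 ± 0.238, NCAPG2 at 9.56 ± 0.253, SMC2 at 5.44 ± 0.620 and NCAPG at 5.20 ± 0.196 CPM per kb. KIF4A and SMC4 did not differ beyond their spread, and neither did SMC2 and NCAPG. With siE7, KIF4A (18.4 ± 2.22 CPM per kb) came second after NCAPD2 (43.1 ± 7.61), and SMC4 (9.14 ± 1.82) came after NCAPH2 (10.9 ± 2.25) and NCAPD3 (10.6). In that group the libraries of KIF4A and TOP2A (14.5 ± 3.92) overlapped, as did those of TOP2A and NCAPH (14.3 ± 0.697) and those of SMC4, NCAPH2 and NCAPD3, so these places are not apart beyond the spread. Summed over their own subunits, condensin I transcripts were at 2.17 to 2.19 times the condensin II level per kb in the siNC libraries and at 1.81 to 2.19 times in the siE7 libraries. With the median over the subunits in place of the sum, to which NCAPD2 contributes most, the ratio was 1.24 to 1.30 with siNC and 1.33 to 1.62 with siE7, so its direction depends on this choice. SMC4 was at 3.47 to 3.77 times the SMC2 level per kb with siNC and at 2.59 to 4.17 times with siE7. These values depend on the transcript taken for the length. By the union of all annotated exons the siNC level of NCAPD3 was 5.28 CPM per kb.

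**Figure D4:**
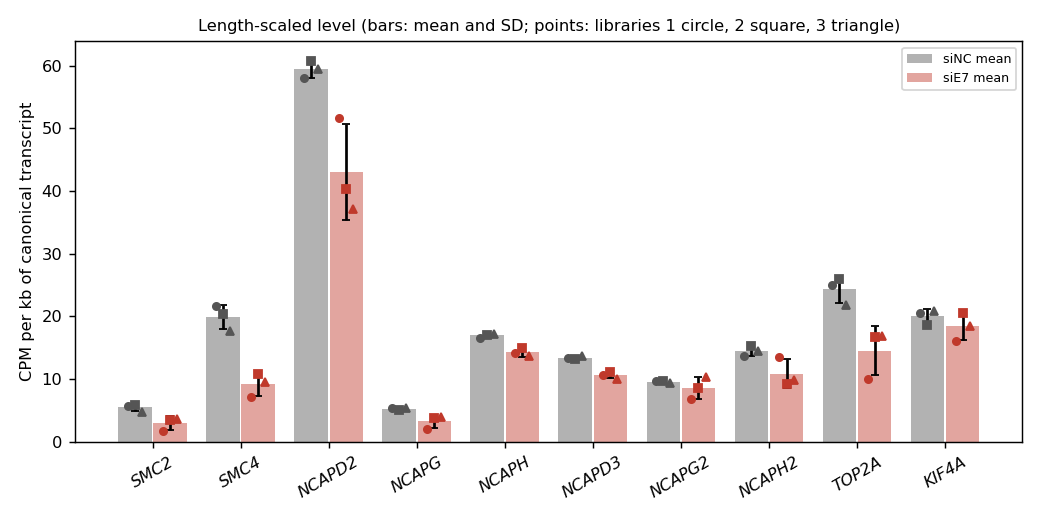
Level of each gene in CPM per kb of its canonical transcript (y axis, from 0), as mean (bars) and SD (error bars) of 3 siNC (grey) and 3 siE7 (red) libraries, with each library as a point. NCAPD2 stands above the other genes in both groups, and SMC2 and NCAPG are the lowest.

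Related genes were compared by their ratio within each library, which does not depend on the scaling of libraries. An exact two-sided permutation test was used for 6 pairs, and with 3 libraries against 3 it cannot give a p-value under 0.1. The ratio of TOP2A to TOP2B, the paralog that is also expressed in cells that do not divide, moved the least among replicates. Its log2 value was 1.67, 1.64 and 1.63 with siNC and 1.96, 2.07 and 2.02 with siE7. The groups did not overlap, and the difference was 0.37 (SE 0.035, exact permutation p = 0.1, adjusted p = 0.3 over the 6 pairs). It was 0.40 without siE7 replicate 1. TOP2B itself was at 44.7, 47.2 and 40.4 CPM with siNC and at 14.6, 22.7 and 23.6 CPM with siE7, which was -1.12 on the log2 scale (SE 0.176, adjusted p = 0.00068, edgeR). TOP2A thus had the smaller decrease of this pair in each siE7 library. The log2 ratio of NCAPG to NCAPG2 was -0.68, -0.78 and -0.63 with siNC and -1.59, -0.99 and -1.22 with siE7, a difference of -0.57 (SE 0.182, exact permutation p = 0.1, adjusted p = 0.3). It was -0.40 without siE7 replicate 1.

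For the other 4 pairs the groups overlapped. The differences in log2 ratio were -0.14 for NCAPD2 to NCAPD3, 0.18 for NCAPH to NCAPH2, 0.18 for SMC2 to SMC4 and 0.33 for KIF4A to KIF22, with exact permutation p-values of 0.3 to 0.4 and an adjusted p of 0.4 for each. In all 4, siE7 replicate 1 lay on the other side of the siNC mean from siE7 replicates 2 and 3. KIF22, a chromosome-bound kinesin that pushes chromosome arms away from the poles, fell, at -0.45 on the log2 scale (SE 0.131, adjusted p = 0.0208, edgeR).

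The promoters of these genes were searched for letters that cell cycle genes are known to share. The CHR element (TTTGAA or TTCGAA) is bound by MuvB complexes, which repress G2/M genes in resting cells as DREAM and activate them in cycling cells with B-MYB and FOXM1. CCAAT boxes are bound by NF-Y. RefSeq promoter windows (GRCh38.p14) of 250 bases before and 50 bases after each annotated start were searched on both strands, and they matched 9 of the 10 genes, all except NCAPH2, with 12 starts. The CHR letters were found in 8 of these 9 genes, against 19.5% of 27305 genes with such windows. The CCAAT letters were found in 5 of the 9, against 39.7%. A match of letters is a description and does not show binding. The 250 bases upstream of TOP2A, shown because TOP2A fell and holds 2 CHR and 4 CCAAT matches, lie at chr17:40417897-40418146 on the minus strand. They read 5′ to 3′ as follows, with the CHR letters (TTTGAA, or TTCAAA for the other strand) and the CCAAT letters (ATTGG for the other strand) in capitals and no overlap between them.
TOP2A: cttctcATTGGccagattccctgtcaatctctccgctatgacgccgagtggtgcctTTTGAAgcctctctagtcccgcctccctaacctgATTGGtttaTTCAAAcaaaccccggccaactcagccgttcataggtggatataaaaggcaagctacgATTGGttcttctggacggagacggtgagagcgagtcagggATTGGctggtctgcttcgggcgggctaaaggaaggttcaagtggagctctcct

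The CHR matches that lie wholly upstream of the start in the other genes are shown with 12 bases on each side. Capitals mark the CHR letters. The match begins 75 bases before the start in SMC4 (chr3:160399563-160399592, plus strand), 145 in NCAPD2 (chr12:6493945-6493974, plus strand), 35 in NCAPG (chr4:17810932-17810961, plus strand) and 34 in KIF4A (chrX:70290058-70290087, plus strand).
SMC4: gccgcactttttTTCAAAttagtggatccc
NCAPD2: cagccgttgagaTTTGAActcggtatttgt
NCAPG: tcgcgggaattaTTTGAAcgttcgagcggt
KIF4A: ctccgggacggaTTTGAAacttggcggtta

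In SMC2 and NCAPD3 the match spans a start itself, and in NCAPG2 it begins 36 bases after the start. SMC2, SMC4 and NCAPD3 each have another annotated start, whose window held no CHR match. A gene was counted if any of its starts held a match. NCAPH had a CCAAT match and no CHR match in its window. KIF4A held the same letters at nearly the same distance from the start as NCAPG. Any part of these letters in the changes was not tested.

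Of 66 related genes listed by role, 64 were tested, of which 20 passed as lower and 6 as higher, beside 16.0% and 18.0% of all tested genes. Without siE7 replicate 1 these counts were 32 and 16, beside 29.5% and 28.9% of all tested genes in that fit. Cohesin, which holds sister chromatids together, had 3 of 5 ring subunits lower and none higher. STAG2 had a log2 fold change of -1.24, SMC3 of -0.63 and SMC1A of -0.33. Within siE7, 4 of the 5 were lowest in replicate 1, a count given without its share over all tested genes. Of 12 cohesin regulators 2 were lower, the loader NIPBL (-1.16) and PDS5A (-0.48), and 10 did not pass, among them HDAC8 at 0.35. In the SMC5/6 complex, which acts in DNA repair, SMC6 was lower (-0.54) and the subunits NSMCE3 (0.79) and NSMCE2 (0.86) were higher, among 8 tested. Of the other topoisomerases and the enzymes that remove trapped topoisomerases, TOP2B and TDP1 (-0.41) were lower and the mitochondrial TOP1MT (0.49) was higher, and 4 of 7 did not pass.

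Among chromokinesins and partners of KIF4A, 6 of 10 tested genes were lower and none was higher, beside 16.0% and 18.0% of all tested genes. BIRC5, a subunit of the chromosomal passenger complex, was at 284 ± 6.67 CPM (SD, n = 3) with siNC and at 102.5 ± 11.4 CPM (SD, n = 3) with siE7, which was -1.47 on the log2 scale (SE 0.116, adjusted p = 7.43e-06, edgeR). KIF23 (-0.97), a midzone kinesin, and PRC1 (-0.57), which bundles midzone microtubules and recruits KIF4A, were also lower. Of 7 regulators of condensin 3 were lower, among them the mitotic kinase PLK1 (-0.56) and cyclin B1 (CCNB1, -0.42), and CSNK2A1 (0.43), a subunit of the kinase CK2, was higher. Of 15 genes of DREAM, MuvB, the RB family and FOXM1, 3 were lower and 2 higher, which is near the shares of all tested genes. FOXM1 (-1.04), RBBP4 (-0.87) and MYBL2, the gene of B-MYB (-0.80), were the lower ones, and RBL2 (0.68), a pocket protein of DREAM, and LIN52 (0.64), a MuvB subunit, the higher ones. FOXM1 was at 48.5% of its siNC level, MYBL2 at 57.3% and RBBP4 at 54.8%. The median log2 fold changes were -0.33 for the cohesin ring, -0.13 for cohesin regulators, -0.15 for SMC5/6 and 0.10 for the other topoisomerases. They were -0.45 for chromokinesins and partners, -0.42 for condensin regulators and -0.07 for the DREAM group, beside 0.08 for all tested genes.

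Marker genes of the cell cycle moved beside these results. Among all tested genes, 16.0% passed as lower and 18.0% as higher. Of 18 G2/M genes 10 were lower and 1, the kinase NEK2 (0.61), was higher, with a median log2 fold change of -0.54 and a summed level of 1210 to 1251 CPM with siNC and 868 to 1022 CPM with siE7. CENPF (-0.86), CKAP2L (-1.31) and KIF20B (-1.30) had the smallest p-values, and 15 of the 18 were lowest in siE7 replicate 1 within siE7. No share over all tested genes is given for that count, and genes poor in GC were low in that library in general. Of 18 G1/S genes 11 were lower and 2, PCNA (0.43) and E2F1 (0.52), were higher, with a median of -0.36 and a summed level of 3447 to 3498 CPM with siNC and 2606 to 2889 CPM with siE7. TYMS (-0.83), CCNE1 (-0.89) and UHRF1 (-0.71) led this list. The part of the cell cycle in the changes of the condensin genes and TOP2A was not tested.

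The profile of TOP2A over the 6 libraries was compared with those of 7965 other genes with a mean of at least 10 CPM, by Euclidean distance of the centred log2 CPM. The nearest were AC116366.7 (0.150), ANLN (0.159), the gene of the cytokinesis scaffold anillin, ECT2 (0.166), an exchange factor of cytokinesis, ARHGAP11A (0.167) and the chromatin remodeller CHD1 (0.168). Among the nearest to the mean profile of the 8 condensin subunits were the chaperone gene HSPA8 (0.0881), PRC1 (0.0922), BCL10 (0.0985) and AGO1 (0.102). All these distances include siE7 replicate 1, whose ratio to the other siE7 libraries followed GC content. No distances without that library are given, so nearness here does not show a shared role.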

How the data were processed

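RNA sequencing of 6 libraries of SCC-9 cells was used. For these libraries the authors describe stranded poly(A) mRNA libraries and paired-end 150-base reads (NovaSeq), and the submitters' processing notes name HISAT2, DESeq2 and GRCh38. The counting tool, the annotation release and the use of the strand are not given in the sources used here. The authors deposited whole-number read counts per gene without normalization, and these counts were used as deposited. Groups were taken from the sample titles.

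Genes were filtered by filterByExpr of edgeR 4.0.16 (R 4.3.3), scaled by TMM and tested by the quasi-likelihood F-test with robust dispersions and Benjamini-Hochberg adjustment. The study used DESeq2, which was run as an alternative (1.42.0), as was limma 3.58.1. CPM are read counts scaled to library size with TMM factors. Lengths, GC content and positions come from GENCODE v44 (GRCh38), to which 25283 of 25349 identifiers were matched without version number. The canonical transcript was taken for length after the data had been seen, since exon unions were far longer for some genes. For the GC trend, a lowess curve (span 0.3) of each library against GC content was removed. Pair ratios used counts plus 0.5. The tests were checked on simulated data. The named genes are the 10 members, MKI67, the partners of the pairs, the 3 genes with the smallest p-values of each list, and the 5 nearest profiles of TOP2A and of the condensin mean. Not every gene that the rule names is reported here. LIN52, RBL2, KIF4B, EID3, NEK2, PCNA, E2F1 and the cell type markers CD68, DCN, DES, COL1A1, COL1A2 and ACTA2 were named after their values were seen. The members and the lists were chosen with earlier results of these data known, so counts over them are descriptions. The replicate numbers did not pair the libraries. Alternatives were other tests, scalings and filters, a replicate block, GC removal and each library left out. Figures were drawn with matplotlib 3.10.9.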

Additional observations from a re-analysis of the deposited data

How the results depend on the processing

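The count of the 10 genes passing as lower (6) was 2 without composition scaling and 10 with the GC trend removed, and 2 to 8 with 1 library left out (2 without siNC replicate 1 or 2, 3 without siNC replicate 3). No setting gave a gene passing as higher. The count of DEGs (1) was 0 without composition scaling and with glmTreat at the DEG limit, 2 with the GC trend removed, with or without the block, and 1 to 2 with 1 library left out (2, SMC4 and SMC2, without siE7 replicate 2 or 3). Library totals in place of TMM moved the median of all tested genes by 0.17, to 0.25. In that setting NCAPG2 and KIF4A had log2 fold changes of 0.0162 and 0.0476, above 0 but below this median. Of the related genes, the 20 passing as lower were 10 without composition scaling and 32 with the GC trend removed, and 12 to 32 with 1 library left out, with 32 without siE7 replicate 1. The 6 passing as higher were 12 without composition scaling, 10 without the filter on low counts, 11 with the GC trend removed, with or without the block, and 4 to 16 with 1 library left out, with 16 without siE7 replicate 1. MKI67 lay between -3.27 and -3.04. Samples with the same replicate number did not deviate together (correlations of -0.052 to -0.021), and with a replicate block 6 of the 10 genes passed, NCAPH2 in place of NCAPD3. Leaving out 1 library kept the sign of each difference in pair ratio, as did an offset of 5 counts. Of the listed genes, KIF4B (at most 4 counts) and EID3 (at most 10) had too few counts to be tested.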
